A study of Mus musculus with 2 samples.

Results

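The nuclear-encoded genes of the mitochondrial respiratory chain and ATP synthase were examined in an iCLIP map of the RNA-binding protein Tia1. Members were the protein-coding genes of the mouse GENCODE annotation whose symbols start with Ndufa, Ndufb, Ndufc, Ndufs or Ndufv (complex I, NADH dehydrogenase), Sdh (complex II, succinate dehydrogenase), Uqcr (complex III, the cytochrome bc1 complex), Cox4 to Cox8 (complex IV, cytochrome c oxidase) or Atp5 (complex V, ATP synthase), with the Ndufaf assembly factors left out. The rule took 90 of 21951 protein-coding genes, 38 of complex I, 8 of complex II, 8 of complex III, 18 of complex IV and 18 of complex V. The rule used gene symbols only. The 8 genes of complex II include the 4 assembly factors Sdhaf1 to Sdhaf4, and Atp5o is annotated as 2 gene records, one of them without a 3′UTR, which leaves 89 members with an annotated 3′UTR.

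Both samples came from splenic B cells of C57BL/6 mice, isolated with a bead kit and cultured with 10 µg/ml lipopolysaccharide (LPS) for 48 h, and RNA was crosslinked with UV light and immunoprecipitated from cytoplasmic extracts. They are replicates 1 and 2 of 1 group, which the study describes as independent experiments. No control, input or untreated sample was analysed here, and n = 2 allows no test over samples, so the values are given per replicate and beside those of all protein-coding genes. The titles name Tia1, the antibody field names the relative Tial1, and the methods name a Tia1 antibody, which was not settled here. Crosslinked nucleotides that passed the authors' false discovery rate (low-FDR sites) numbered 342732 with 639108 cDNAs in replicate 1, against 93512 with 165081 cDNAs in replicate 2. The pooled list, called on the sum of both, held 867271 cDNAs. A cDNA count reflects both how much of an mRNA was present and how often it was crosslinked, and mRNA levels were not used here, so their part in any value below was not tested. Among the markers with an annotated 3′UTR, 5 of 6 B cell genes had a 3′UTR site in both replicates (2845 and 651 cDNAs summed), against 0 of 5 T cell genes (4 and 0), 2 of 5 myeloid genes (29 and 6) and 1 of 4 erythroid genes (25 and 3).

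The respiratory chain passes electrons from NADH and succinate through complexes I to IV to oxygen and pumps protons across the inner mitochondrial membrane, and ATP synthase uses the proton gradient to make ATP. Most of its subunits are encoded in the nucleus, translated in the cytosol and imported, while a smaller set is encoded on mitochondrial DNA and translated inside the organelle. Resting B cells that meet LPS grow and divide, and build up mitochondria as they do. Tia1 binds U-rich RNA and, in stress granules, is known as a repressor of translation.

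The crosslinks of these mRNAs were packed into short stretches, and the sequences below are the densest 30 nt of the 3′UTR in the 2 leading genes of each complex (with Cox5b added for complex IV, and Atp5b in place of Atp5a1, whose sequence is not shown), followed by 2 stretches in coding sequence. They are printed 5′ to 3′ as DNA letters along the transcript, with low-FDR crosslinked nucleotides in capitals, so that the base composition under the crosslinks can be read directly.
Ndufc2: gaaTATTTTctGagtTTTAtgGGATTTTCt
Ndufa4: tgttGATTTTTTttTtTtTtggagttTatt
Sdhc: tGTTTTTCaTTTCTAggaaaaTacaccTTT
Sdhd: CTTcTaatTacatgGtTaTTTTcagaaTTT
Uqcrc2: TTAaTaaTTaaTTaatGtTaATTcaacATT
Uqcrfs1: TtggttgATTTAaaatATTTAagaaTTgtT
Cox6b1: tCtCCTcTGTTCTTTgTCTTTCTCcCcggA
Cox8a: TccctcaTCCTTTGaCtagacCACTTTTGC
Cox5b: tgtaaagAaaaACTTCTCTCTAaTaaagat
Atp5f1: AtTaccaagtTATAATTTaaAcTtgTaATT
Atp5b: caTATCaaGCgagagcTcaggtTTCcTTCc
Ndufa8 coding sequence: cacggcacccgCTTTTTTTTctggaccgtg
Atp5g3 coding sequence: CtTTtgTTTgatggtTGCgTTCTTGATcTT
On GRCm38 the 3′UTR stretches lie at chr7:97407711-97407740 (plus strand) for Ndufc2, chr6:11900401-11900430 (minus) for Ndufa4, chr1:171129234-171129263 (minus) for Sdhc, chr9:50596948-50596977 (minus) for Sdhd, chr7:120659162-120659191 (plus) for Uqcrc2, chr13:30540619-30540648 (minus) for Uqcrfs1, chr7:30617063-30617092 (minus) for Cox6b1, chr19:7215347-7215376 (minus) for Cox8a, chr1:36693333-36693362 (plus) for Cox5b, chr3:105942735-105942764 (minus) for Atp5f1 and chr10:128090158-128090187 (plus) for Atp5b. The coding stretches lie at chr2:36036507-36036536 (minus) for Ndufa8 and chr2:73908606-73908635 (minus) for Atp5g3.

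The sequences differed in kind between genes. The Ndufa4 stretch held 22 T of 30 nt, most of them in a single uninterrupted run and the others on either side of it. That of Uqcrc2 was built of A and T (13 A and 14 T), as was that of Atp5f1 (12 A and 13 T). Those of Cox6b1 and Cox8a were pyrimidine mixtures, with 14 T and 11 C in Cox6b1 and 11 T and 11 C in Cox8a, and that of Atp5b held only 8 T and 9 C. A run of 5 T was present in 5 of the 24 stretches read (up to 5 genes per complex), those of Ndufa4, Ndufs1, Sdhc, Sdhaf4 and Sdhaf2, and in none of those read for complexes III, IV and V.

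A 3′UTR with a low-FDR site in both replicates was found for 34 of the 89 members (38.2%), against a background of 22.0% of all protein-coding genes with an annotated 3′UTR. The 3′UTRs of the members are short, with a median of 203 nt against 960.5 nt for all genes, and 57 of them are under 300 nt. Within that class, 21 of 57 members (36.8%) had a site in both replicates, against 8.58% of all genes with 3′UTRs of that length. From 300 nt to under 1000 nt it was 10 of 24 (41.7%) against 19.7%, and from 1000 nt up 3 of 8 (37.5%) against 29.2%. The share of members with a site was thus similar in the 3 classes, though the longest held only 8 members, too few to show a trend with length. In all genes the share increased with length. Other families with short 3′UTRs lay on either side, with 19 of 78 cytosolic ribosomal protein genes (24.4%) and 23 of 39 proteasome subunit genes (58.97%) having a site in both replicates.

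**Figure D1:**
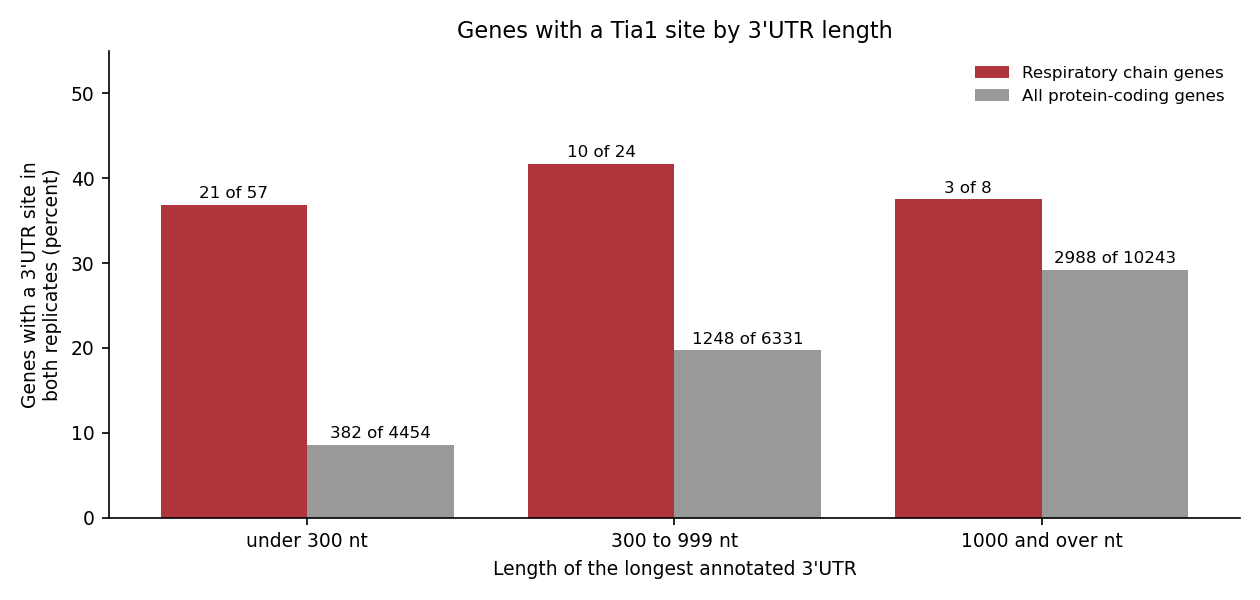
Percent of genes with a low-FDR 3′UTR site in both replicates (vertical axis) by length of the longest annotated 3′UTR (horizontal axis), for respiratory chain genes (red) and all protein-coding genes (grey), with counts above the bars. The members lie between 36.8% and 41.7% in every class, and all genes between 8.58% and 29.2%.

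The deeper replicate 1 had a 3′UTR site in 48 members (53.9%, background 31.9%) and replicate 2 in 34 (38.2%, background 22.7%). All 34 members seen in replicate 2 were also seen in replicate 1, 14 were seen in replicate 1 alone, and 3 only in the pooled list. Of all genes, 4618 of the 4780 seen in replicate 2 were also seen in replicate 1. A further 2095 of the 6713 in replicate 1 were seen there alone, and 415 only in the pooled list. At least 10 pooled 3′UTR cDNAs were counted in 35 members (39.3%, background 25.1%), which became 29 (32.6%, against 22.5% of all genes) in replicate 1 alone and 16 (17.98%, against 11.9%) in replicate 2 alone. Pooled counts were at least 50 in 15 members (16.9%, background 12.9%) and at least 100 in 6 (6.74%, background 7.82%). The share of members was thus above the background at the lower limits and near it at 100 cDNAs. The 6 leading genes held 43.4% of the 2058 pooled 3′UTR cDNAs of the members and the 15 leading genes 75.3%.

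**Figure D2:**
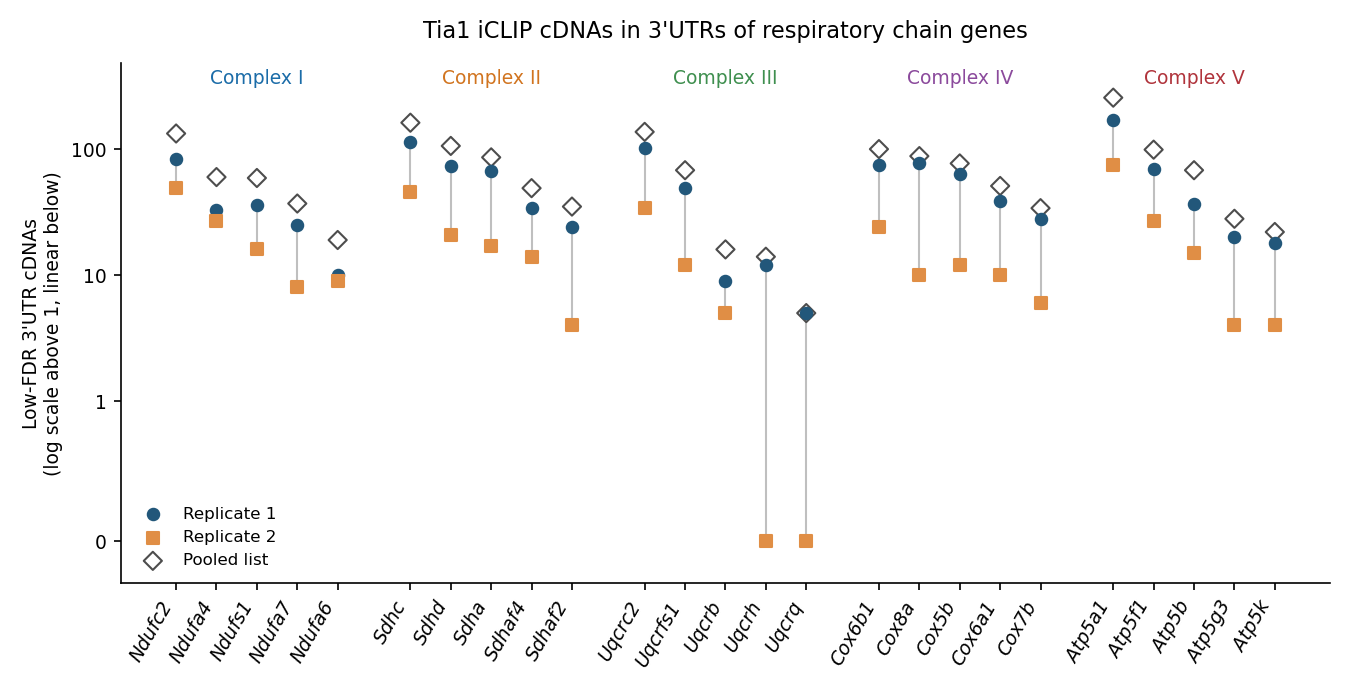
Low-FDR 3′UTR cDNAs (vertical axis, logarithmic above 1) of the 5 members with most pooled cDNAs in each complex (horizontal axis), in replicate 1 (circles), replicate 2 (squares) and the pooled list (diamonds). Replicate 1 is above replicate 2 in every gene shown, by least in Ndufa6 (10 and 9), and replicate 2 is at 0 for Uqcrh and Uqcrq.

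Complex I takes electrons from NADH. Ndufc2, a subunit of its membrane arm, led with 83 3′UTR cDNAs in replicate 1 and 49 in replicate 2 (133 pooled) in a 3′UTR of only 134 nt. Ndufa4, first assigned to complex I and now known as a subunit of complex IV, had 33 and 27 (60 pooled). Ndufs1, the largest core subunit, which carries iron-sulphur clusters, had 36 and 16 (59 pooled). The accessory subunits Ndufa7 and Ndufa6 followed with 25 and 8 (37 pooled) and 10 and 9 (19 pooled). Ndufc2, Ndufa4 and Ndufs1 were the members of complex I with 50 or more pooled cDNAs. Of the core subunits, which hold the redox centres, Ndufv1 also had sites in both replicates (15 and 3 cDNAs), and Ndufs3 and Ndufs7 had no 3′UTR site. In total 13 of 38 genes of complex I had a site in both replicates (34.2%, against 22.0% of all genes).

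Complex II also works in the citric acid cycle. A site in both replicates was found in 6 of its 8 genes, against 22.0% of all genes, and its 3′UTRs are longer than those of the other members, with a median of 780.5 nt. The 6 genes were all 4 of its structural subunits and 2 assembly factors. Sdhc and Sdhd, the membrane anchors, had 114 and 46 (162 pooled) and 73 and 21 (106 pooled) 3′UTR cDNAs. Sdha, the flavoprotein that oxidises succinate, had 67 and 17 (86 pooled), while the iron-sulphur subunit Sdhb had only 2 and 2 (4 pooled). Of the assembly factors, Sdhaf4 had 34 and 14 (49 pooled) and Sdhaf2, needed to attach the flavin to Sdha, had 24 and 4 (35 pooled). Sdhaf1 and Sdhaf3 had no low-FDR site.

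In complex III, Uqcrc2, a core protein of the matrix side, had 102 and 34 3′UTR cDNAs (137 pooled). Uqcrfs1, the Rieske iron-sulphur protein, had 49 and 12 (68 pooled) and Uqcrb 9 and 5 (16 pooled). Uqcrh and Uqcrq were seen in replicate 1 alone (12 and 5 cDNAs). Uqcrc1, the partner of Uqcrc2, had 3 pooled 3′UTR cDNAs, called in neither replicate alone. The core pair therefore differed by 137 to 3 in pooled 3′UTR cDNAs.

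In complex IV, Cox6b1, which joins the monomers of the dimeric enzyme, had 75 and 24 3′UTR cDNAs (100 pooled). The small structural subunits Cox8a, Cox5b, Cox6a1 and Cox7b had 77 and 10 (88 pooled), 63 and 12 (77 pooled), 39 and 10 (51 pooled) and 28 and 6 (34 pooled). Together 7 of 18 genes of complex IV had a site in both replicates (38.9%, against 22.0% of all genes). Isoforms known from heart, muscle, lung or testis were looked up, and Cox4i2, Cox6b2, Cox7a1, Cox7b2, Cox8b, Cox8c and Ndufa4l2 had no low-FDR site. All of these but Ndufa4l2 have 3′UTRs under 300 nt. Among all genes of that length only 711 of 4454 had a pooled 3′UTR site. The absence therefore cannot set these isoforms apart from other genes with short 3′UTRs. The muscle isoform Cox6a2 had 2 cDNAs, in replicate 1. Without these isoforms and the complex II assembly factors, an alternative added after seeing the data, 32 of the 77 remaining members with a 3′UTR had a site in both replicates (41.6%, against 22.0% of all genes).

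In complex V, Atp5a1, the alpha subunit of the catalytic head, had more 3′UTR cDNAs than any other member, 171 and 75 (256 pooled). Atp5b, the catalytic beta subunit, had 37 and 15 (68 pooled), and Atp5f1, the b subunit of the stalk that holds the head, 69 and 27 (99 pooled). Atp5g3, which encodes subunit c of the rotor ring, had 20 and 4 (28 pooled) and Atp5k, subunit e, 18 and 4 (22 pooled). The other 3 subunits of the head had few or none, with Atp5e at 3 and 0, Atp5d at 1 and 0 and Atp5c1 at 0. Atp5g1 and Atp5g2, which encode the same mature subunit c as Atp5g3, had 3 pooled 3′UTR cDNAs and none. In total 5 of 17 genes of complex V had a site in both replicates (29.4%), near the 22.0% of all genes.

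No pooled 3′UTR site was found in 38 of 89 members, against 13738 of 21028 protein-coding genes with an annotated 3′UTR. No exon site was found in 29 of 90 members, with the Atp5o record that lacks a 3′UTR, against 14130 of 21951 protein-coding genes. Such absence was thus less common in the members than in all genes. Of the 38 members without a 3′UTR site, 10 had cDNAs in other exons and 28 had no low-FDR site in any exon. The latter were Ndufa1, Ndufa5, Ndufa11, Ndufa12, Ndufa13, Ndufa4l2, Ndufb7, Ndufb10, Ndufb11, Ndufc1, Ndufs3, Ndufs5, Ndufs6 and Ndufv3 of complex I, Sdhaf1 and Sdhaf3 of complex II, Uqcr10 and Uqcr11 of complex III, Cox4i2, Cox6b2, Cox7a1, Cox7b2, Cox8b and Cox8c of complex IV, and Atp5g2, Atp5j, Atp5j2 and Atp5s of complex V. The list holds only sites that passed the authors' FDR, so a 0 sets no upper limit on binding. Members with a site had 3′UTRs with a median U content of 30.5% and a median length of 236 nt, and those without had 26.6% and 178 nt. In all genes the medians were 30.2% and 1388 nt with a site and 28.5% and 751 nt without. Many genes of this family have processed pseudogenes, and how reads with several matches were treated was not stated in the sources read here. At least 50% of the 3′UTR positions gave a 32-nt sequence found elsewhere in the genome in 7 of 89 members (7.87%, background 7.51%), of which Uqcrb and Cox7a2l had a 3′UTR site and Ndufs3, Ndufs5, Ndufb11, Atp5j and Atp5l had none. Of the members' pooled 3′UTR cDNAs, 1.55% lay at sites followed by such a sequence (1.79% in all genes).

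Per kilobase of annotated 3′UTR, the members carried 43.9 pooled cDNAs against 21.7 for all genes. The ratio was 1.92 in replicate 1 and 2.40 in replicate 2. The pooled values were 23.6 cDNAs per kb in complex I, 35.3 in complex II, 60.3 in complex V, 83.2 in complex III and 104 in complex IV. Their order depends on a few long annotated 3′UTRs with few cDNAs. Of 12536 nt in complex II, the assembly factors Sdhaf2 and Sdhaf3 made up 3447 and 3922 nt, with 35 and 0 pooled cDNAs. Atp5g1 made up 4252 of 8042 nt in complex V (3 cDNAs), and Ndufb2 4012 of 19174 nt in complex I (7 cDNAs). Complex I was at 0.95 times the value of all genes in replicate 1 and at 1.60 times in replicate 2. Complex IV was above complex III in replicate 1 (5.01 and 3.78 times all genes) and below it in replicate 2 (3.88 and 4.09 times). Ndufc2 reached 993 cDNAs per kb, Atp5a1 526, Cox6b1 403, Cox8a 373, Atp5f1 344, Uqcrc2 326 and Atp5k 324. In genes with 3′UTRs under 300 nt the members had 111 cDNAs per kb against 39.6 for all genes, and from 300 nt to under 1000 nt 61.1 against 37.8, whereas from 1000 nt up they had 9.34 against 18.9.

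The sites of a gene lay close together and near the stop codon. In members with at least 10 pooled 3′UTR cDNAs (n = 35), the densest 30 nt held a median of 67.9% of the cDNAs, against 41.5% in all such genes. For 3′UTRs under 300 nt the medians were 72.6% and 76.5%, so that in this class the members were not above all genes. The centre of the densest stretch lay within 100 nt of the stop codon in 23 of the 33 members where it fell in the longest 3′UTR (69.7%, background 13.3%). Under 300 nt it was 15 of 21 (71.4%, background 52.6%), and 12 of these 21 (57.1%, background 44.6%) had it on the stop-codon side of the midpoint. From 300 nt to under 1000 nt it was 8 of 11 members (72.7%, background 13.8%), and 10 of these 11 (90.9%, background 43.2%) had it on the stop-codon side of the midpoint.

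The stretches were placed on the pooled counts, most of which came from replicate 1. In 30 of the 34 members with sites in both replicates the stretch held cDNAs of both, and in Cox5a, Cox7a2, Ndufa2 and Sdhaf2 it held none of the 3 or 4 cDNAs of replicate 2. In Ndufs1 it held 14 of 36 and 2 of 16. In Ndufc2 the stretch centred 58 nt after the stop codon held 50 of 83 cDNAs in replicate 1 and 37 of 49 in replicate 2, and its highest nucleotide had 5 and 6. In Atp5a1 the stretch centred at 54 nt held 88 of 171 and 45 of 75, with 18 and 8 at the highest nucleotide. In Cox6b1 (centre at 31 nt) it was 69 of 75 and 23 of 24, and in Uqcrc2 (73 nt) 58 of 102 and 28 of 34. Among the 10 members with the stretch farther from the stop codon were Sdhc, with 38 of 114 and 26 of 46 in a stretch centred at 552 nt of 2636, and Atp5f1, with 34 of 69 and 26 of 27 at 236 nt of 288 and 13 and 12 cDNAs at its highest nucleotide. Over all members, 63.6% of the 269 sites of replicate 2 were also sites of replicate 1 (64.6% in all genes). In 6 of the 34 members with sites in both replicates (Ndufb2, Ndufb3, Sdhb, Cox5a, Cox7a2 and Atp5g3) no nucleotide was shared. These 6 had only 2 to 4 3′UTR cDNAs each in replicate 2. Neither this count nor that of the 30 stretches with cDNAs of both replicates was made for all genes.

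**Figure D3:**
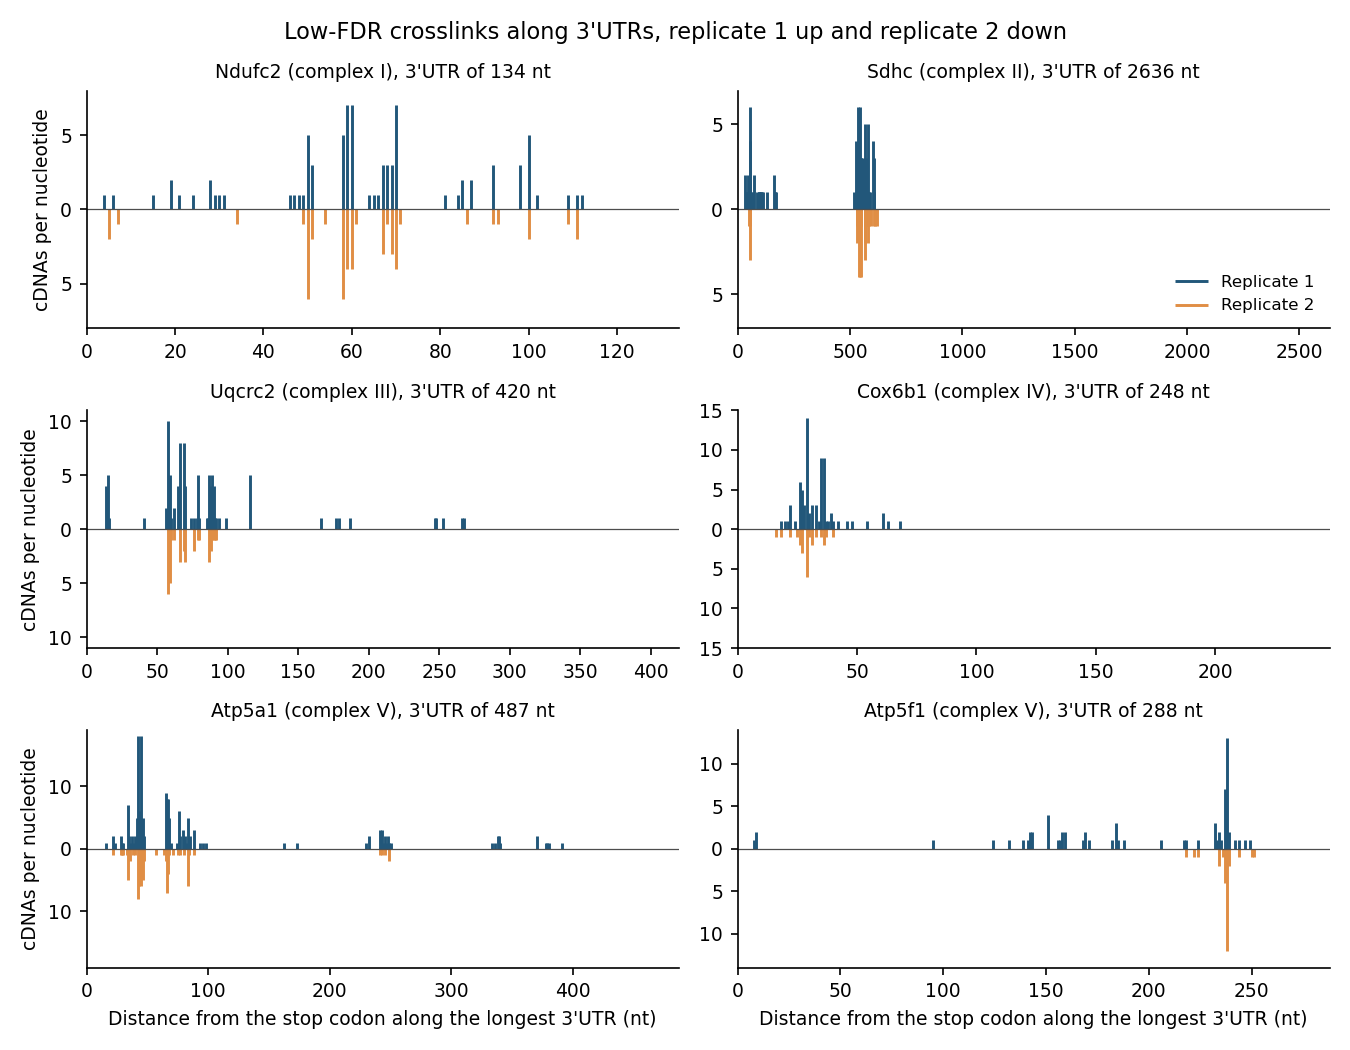
Low-FDR cDNAs per nucleotide (vertical axes, replicate 1 upward and replicate 2 downward) by distance from the stop codon along the longest annotated 3′UTR (horizontal axes, in nt) of 6 leading members. Crosslinks gather within 100 nt of the stop codon in Ndufc2, Uqcrc2, Cox6b1 and Atp5a1, and around 552 nt in Sdhc and 236 nt in Atp5f1, in both replicates.

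Replicate 2 held 21.01% of the 3′UTR cDNAs of all genes and 25.0% of those of the members (exact 95% interval 23 to 27, counting error only). Of the 22 members with at least 20 cDNAs, 4 had an interval above 21.01% (background 10.9%) and 1 below (background 18.6%), a total of 5 that was no larger a share than in all genes. Those above were Ndufa4 with 45.0% (32.1 to 58.4), Ndufc2 with 37.1% (28.9 to 46.0), Atp5a1 with 30.5% (24.8 to 36.7) and Sdhc with 28.8% (21.9 to 36.4), and Cox8a was below with 11.5% (5.65 to 20.1).

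Around the crosslinks the members were less rich in U than other targets. In the 31 nt centred on each 3′UTR site, U made up 34.5% in the 51 members with a site (mean over genes), against 30.6% in all windows of the same 3′UTRs, a difference of 3.91 points (SD over genes 5.58). In all genes with a site it was 44.6% against 30.3%, a difference of 14.4 points. The difference was above 0 in 39 of 51 members (76.5%, background 97.3%). It was 3.85 points in replicate 1 and 5.63 in replicate 2 for the members, and 14.6 and 17.9 for all genes. Among 3′UTRs under 300 nt with at least 10 cDNAs it was 3.86 points in 21 members and 8.51 in all 411 genes, and among longer ones 7.04 points in 14 members and 14.8 in all 4875 genes. The crosslinked nucleotide itself was U in 70.4% of sites (mean over members), against 79.8% in all genes.

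A run of UUUUU was searched on the transcript strand, and the shares of 31-nt windows holding it are unweighted means over genes. It was found in 8.99% of the windows at member sites, against 40.7% at the sites of all genes. In all windows of the same 3′UTRs it was found in 4.68% and 8.86%. It was present around at least 1 site in 11 of 51 members (21.6%, background 75.1%, and 39.7% for 3′UTRs under 300 nt). Of the printed 3′UTR stretches, those of Ndufa4 and Sdhc held such a run, and those of Ndufc2, Uqcrc2, Cox6b1 and Atp5b did not. A single stretch does not cover all sites of a gene. In Uqcrc2 the run was in 7.69% of the windows at its sites, though not in the printed stretch. By complex, the pooled U difference was 8.42 points in complex II (n = 6), 4.89 in complex IV (n = 12), 4.21 in complex I (n = 18), 1.18 in complex III (n = 6) and 0.81 in complex V (n = 9). Each gene counts equally in these means, so genes with few cDNAs weigh on their order. At the sites of Cox6a2 (2 cDNAs) U was 50.0% against 32.9% in all windows. It was 32.3% against 20.8% in Atp5d (1 cDNA) and 16.1% against 27.6% in Atp5e (4 cDNAs). The difference was 1.65 points in complex III and 0.64 in complex V in replicate 1, against 4.57 and 2.61 in replicate 2. Other families with short 3′UTRs had values between the members and all genes. They were 8.13 points and UUUUU in 30.8% of windows for ribosomal protein genes, and 7.98 points and 28.1% for proteasome subunit genes. All genes with 3′UTRs under 300 nt had 7.83 points and 24.9%, close to these families, and members of that length had 2.92 points and 6.00%.

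**Figure D4:**
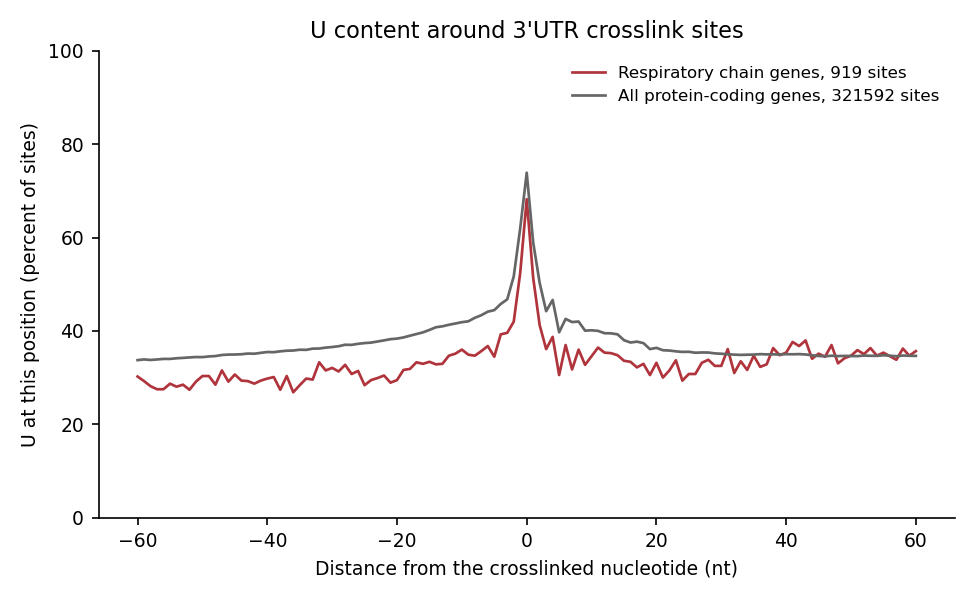
Percent of 3′UTR sites with U (vertical axis) at each distance from the crosslinked nucleotide (horizontal axis, in nt) for the 919 pooled sites of the members (red) and the 321592 of all protein-coding genes (grey). Both peak at the crosslink, at 68.2% and 73.9%, and the members lie below all genes on the upstream side, with 36.02% against 41.9% at 10 nt before the crosslink.

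More of the members' cDNAs lay in coding sequence than in other genes. The 3′UTR held 81.3% ± 8.51 (SD, n = 2) of their cDNAs, with 75.2% in replicate 1 and 87.3% in replicate 2 (95% Clopper-Pearson limits of 73.2 and 77.2, and of 84.2 and 89.9). Coding sequence held 21.6% (19.8 to 23.5) and 10.5% (8.11 to 13.4), against 7.02% and 3.57% in all genes with an annotated 3′UTR. Among genes with 3′UTRs under 300 nt, it was 28.9% and 15.2% in the members and 18.3% and 8.15% in all genes. The pooled coding share was highest in complex I (31.5%) and complex V (26.8%) and lowest in complex II (7.29%), with ribosomal protein genes above (54.6%) and proteasome subunit genes below (9.20%) the members. In replicate 1 complex V had 29.7%, and in replicate 2 it had 10.7%, below complex IV with 11.1%. The 3′UTR shares of the replicates differed by more than their counting intervals.

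**Figure D5:**
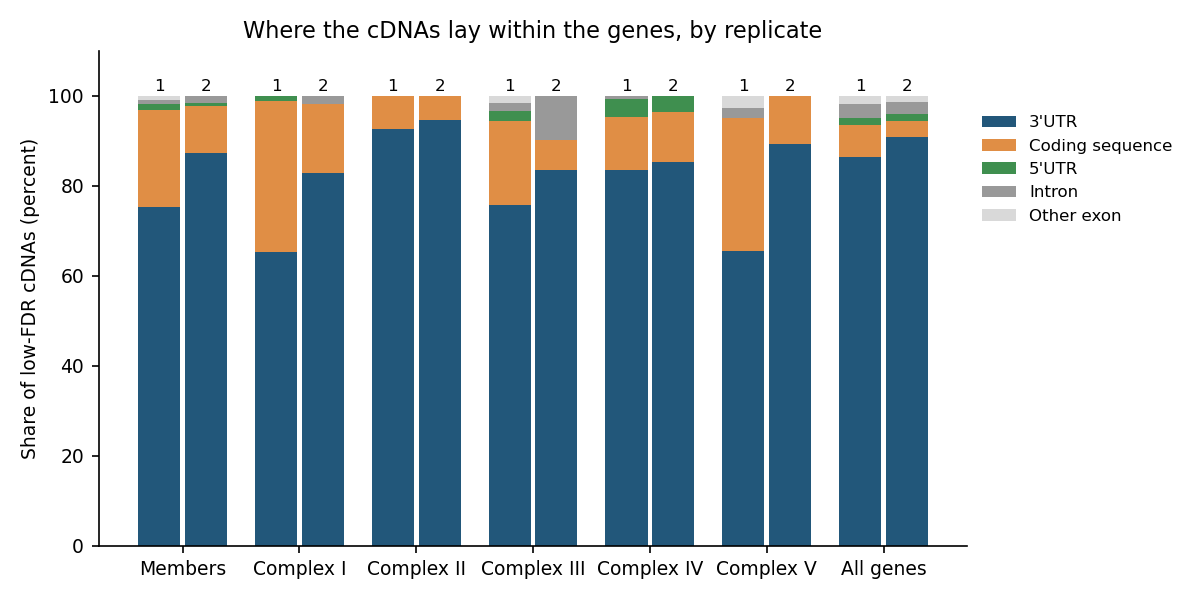
Share of low-FDR cDNAs in percent (vertical axis) by gene feature (colours), for all members, each complex and all protein-coding genes (horizontal axis), in replicates 1 (left bar of each pair) and 2 (right bar). Coding sequence takes 21.6% and 10.5% of the members' cDNAs, and the 3′UTR share is higher in replicate 2 in every group shown.

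At least 20 pooled cDNAs in coding sequence were counted in 8 of 90 members (8.89%, background 3.10%, or 3.44% with 5′UTRs counted too), and 6 of these had some in replicate 2. No member reached 20 cDNAs through its 5′UTR, where Cox7b was highest with 12 pooled. Atp5g3 had more in coding sequence than in its 3′UTR, with 57 and 9 (67 pooled). Its printed stretch is centred 28 nt before the end of the coding sequence and held 35 and 3. Ndufa8, an accessory subunit of complex I on the intermembrane side, had 39 and 9 coding cDNAs (48 pooled), all in the printed stretch with its run of 8 T, centred 18 nt before the end. Atp5a1 had 37 and 6 (52 pooled) and Ndufc2 30 and 5 (40 pooled). Uqcrc1, with its 3 pooled 3′UTR cDNAs, had 21 and 4 in coding sequence (30 pooled) and Sdha 13 and 6 (22 pooled). Atp5b and Ndufb6 were seen there in replicate 1 alone (35 and 18 cDNAs). In the transcript with the longest 3′UTR, the last 100 nt of coding sequence held 197 of the members' 509 coding cDNAs (38.7%) and 13.9% of their coding length, against 20.03% and 4.97% in all genes. Of the members' coding cDNAs, 3.70% lay at sites followed by a sequence found elsewhere in the genome, and these included 9 of 10 in Cox5b and 9 of 16 in Cox7a2.

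Other genes of oxidative metabolism gave a mixed picture, read against the same background of 22.0%. All but 2 of the 14 enzyme genes of the citric acid cycle had a 3′UTR site in both replicates (85.7%), led by citrate synthase Cs with 90 and 13 cDNAs (123 pooled) and the isocitrate dehydrogenase subunit Idh3a with 55 and 10 (80 pooled). Of the assembly factors, 3 of 17 for complex I, 0 of 6 for complex III, 7 of 20 for complex IV and 2 of 4 for complex V had a site in both, with Coa5 of complex IV highest at 161 and 51 (251 pooled). Of 6 genes listed as electron carriers, the flavoprotein Etfa (53 and 30, 83 pooled) and cytochrome c1 Cyc1 (13 and 6, 25 pooled) had one, and cytochrome c Cycs had none. Cytochrome c1 is a part of the cytochrome bc1 complex (complex III), but the symbol rule did not take Cyc1 as a member. Among 14 regulators of mitochondrial biogenesis, 6 had a site in both, and the transcription factors Yy1 and Gabpa had 315 and 74 (406 pooled) and 204 and 62 (303 pooled). The 13 subunits encoded on mitochondrial DNA have no annotated 3′UTR, so the 22.0% does not apply to them. Pooled low-FDR cDNAs were carried by 5 of them, all in coding sequence, 172 pooled with 120 in replicate 1 and 6 in replicate 2. Of these cDNAs mt-Co1 held 95 (73 and 6), and it was the only one of the 13 seen in both replicates.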

How the data were processed

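Tia1 iCLIP was done by the authors on 2 replicates, as described above. Per the file headers and methods, the authors used the iCount pipeline with Bowtie (version not given in the sources used here) on mm9 with Ensembl annotation, collapsed PCR duplicates by random barcodes, and called low-FDR sites per replicate and on the sum. The deposited values are other than plain counts: unique cDNAs per nucleotide, signed for strand and not scaled to depth. The absolute value was used. The authors lifted the pooled list to mm10 (GRCm38), and its 422150 rows pair with the mm9 list, through which replicate counts (98.3% and 98.7% of sites) were placed. No coordinates were converted here.

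Sites were annotated with GENCODE M21 by strand, with coding sequence first, then 3′UTR, 5′UTR, other exon and intron. A site shared by several genes (12 coding cDNAs of Ndufb8) was left out. Lengths are of the longest annotated 3′UTR, and the named stretch is the densest 30 nt. U content was compared with all windows of the 3′UTR. Sequences come from the RefSeq copy of GRCm38. Intervals are exact (Clopper-Pearson, 95%). Named genes were up to 5 members of each complex with most pooled 3′UTR cDNAs, those with at least 20 in coding sequence or 5′UTR, members with no exon site, and tissue isoforms. Genes singled out by role were chosen after their values were seen. The members and lists were chosen with earlier results of these data known. The scripts were tested on simulated data. Software was numba 0.67.0, matplotlib 3.10.9, scipy 1.17.1, pandas 2.3.3, numpy 2.4.6 and Python 3.11.15.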

Additional observations from a re-analysis of the deposited data

Results flagged for a closer look

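Some cDNAs outside the low-FDR lists were flagged in the authors' map of all crosslinked positions. That map was used for no comparison and carries no FDR filter or replicate. Between the outermost low-FDR 3′UTR sites of 49 members (median span 53 nt, taken on mm9), it held 2136 cDNAs. Of these, 2054 (96.2%) were at low-FDR sites and 82 at other positions, above the 3 counts that a count of 0 allows. Over the genome the map held 1582633 cDNAs against 867271 at low-FDR sites, so a sum above 3 was nearly fixed in advance. Bounding each span by low-FDR sites favours a high low-FDR share, and spans of other genes were not counted. Sdhd held 20 of these 82, with 126 cDNAs in all and 84.1% at low-FDR sites, Atp5a1 held 10 and Sdha 9, whereas Ndufc2, Cox6b1 and Cox8a had none.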

How the results depend on the processing

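Of 36 alternatives over 5 results, 22 left the value close to that given, counts within 1.5 times and other values within 1 SD of the replicates. Leaving out a replicate gave 34 to 48 members with a site in the remaining one, 16 to 29 members with at least 10 3′UTR cDNAs (16 without replicate 1, 17.98% against 11.9% of all genes), a 3′UTR share of 75.2% to 87.3%, 41.7 to 52.2 cDNAs per kb (scaled to the pooled total) and a U difference of 3.85 to 5.63 points. Asking for at least 10 cDNAs in each replicate left 16 members (17.98%, against 11.9% of all genes). Sites with at least 5 cDNAs alone left 7 members with a site in both replicates (7.87%, against 3.71%) and 16 with at least 10 cDNAs (17.98%, against 10.2%), and gave a 3′UTR share of 87.3%, 16.7 cDNAs per kb and a U difference of 7.60 points, against 17.9 in all genes. Sites with at least 2 cDNAs gave 32.2 per kb. The median 3′UTR length, an alternative added after seeing the data, gave 67.2 per kb, with 28.4 for all genes. Windows of 15 and 61 nt gave U differences of 7.35 and 0.845 points, with 19.8 and 9.52 in all genes. The cause of these shifts was not tested, beyond the fewer cDNAs that a stricter limit leaves. Replicate 2 had fewer cDNAs by 3.87 times, which limits all counts by replicate. No paired analysis was possible because the series has 1 group.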
